A study of Homo sapiens with 6 samples.

Results

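The genes described here build the contacts between epithelial cells, or mark a cell as epithelial or mesenchymal. They are 48 named genes of cadherin-based adherens junctions, desmosomes and tight junctions, with polarity proteins, epithelial markers, the simple keratins and vimentin, picked by symbol from a list drawn up with earlier results of these data known. Of the 48, 46 were found among the 30327 genes of the count table and 45 in the table of FPKM (reads scaled to gene length and library size). CDH2 and CDH3 were not found in the count table and so were not analysed here, and NECTIN3 was analysed from counts only.

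SK-BR-3 is an established human breast cancer line that overexpresses HER2. Poly(A) RNA of these cells was sequenced in 6 libraries, 3 after transfection with a control siRNA without a target (si_NC) and 3 after transfection with siRNA to GRB2 (si_GRB2), the adaptor that links receptor tyrosine kinases to RAS. The descriptions of the treated libraries read si_GRB2, whereas their titles and genotype field, and 1 passage of the study's methods, name GRB2 overexpression. GRB2 itself came to 123.9, 129.5 and 125.7 CPM (counts scaled to library size with edgeR's TMM factors) in si_NC and to 27.8, 28.1 and 29.6 in si_GRB2, so the groups are named by their descriptions here. The methods print 1 siRNA against GRB2, the supplement lists RNA from cells given several, and the labels do not say which one these libraries had. With a single siRNA, loss of GRB2 and off-target action cannot be told apart. Nothing in the labels says whether the 3 libraries of a group came from separate cultures, so p-values measure the spread between these libraries, which may be technical.

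As background, adherens junctions join cells through cadherins and nectins, which catenins and afadin tie to actin. Desmosomes join them through desmogleins and desmocollins, which plakoglobin, plakophilins and desmoplakin tie to keratin filaments. Tight junctions seal the gap between cells with claudins, occludin and tricellulin over a scaffold of ZO proteins and cingulin. In an epithelial-mesenchymal transition, cells are known to lose E-cadherin and gain vimentin. SK-BR-3 is known to lack E-cadherin.

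The libraries held from 24810378 to 28532480 reads on genes. Between replicates of a group, the counts differed by more than counting noise, with a chi-square of 2.07 to 4.599 per degree of freedom, and no library was counted as a copy of another. The labelled cell type was checked against 8 markers of a luminal HER2 line, whose summed level was from 14531 to 17680 CPM. That sum came mainly from KRT8, KRT18, KRT19 and ERBB2, while GATA3, a luminal marker, had only 3.06 to 4.41 CPM. KRT8, KRT18, KRT19 and EPCAM are also among the genes described here. The summed levels of 7 fibroblast markers (4.06 to 6.35 CPM) and 4 immune markers (0.636 to 1.78 CPM) were far lower than the luminal sum. Most of the fibroblast sum came from COL1A1, at 3.71 to 5.31 CPM, while LUM and PDGFRA had 0 reads in 5 of the 6 libraries. Basal and myoepithelial markers (5 genes) summed to 22.0 to 23.7 CPM in si_NC and 12.01 to 12.8 CPM in si_GRB2, with KRT5 and ACTA2 lower and KRT14 and TP63 at 10 reads or fewer. Endothelial markers (3 genes) summed to 28.9 to 30.9 and 17.5 to 21.4 CPM, nearly all from CDH5, while PECAM1 had at most 1 read. The part of either list in the results below was not tested.

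Of the 46 genes, 43 had enough reads to test, and 10 were higher and 10 lower in si_GRB2 at an adjusted p under 0.05 from edgeR's quasi-likelihood test. That is 46.5%, against 30.6% of all 15801 genes tested. Power rises with reads, and all but 1 of the 43 genes had a mean of at least 10 CPM. Among genes at that level, a limit chosen after seeing the data, 47.6% of the members and 43.6% of all 9182 genes were called. The share of these genes that changed was thus near that of other well-covered genes. The median log2 fold change was 0.03 over the 43 genes and 0.0019 over all genes tested. The largest changes were a rise of PERP and falls of DSG2, KRT18 and EPCAM, while CDH1 and VIM were close to undetected. Only PERP passed the limits used here for a differentially expressed gene (DEG; a fold change above 1.5 and an adjusted p under 0.01), which 2.52% of all genes tested passed, 0.829% as higher and 1.69% as lower. The study words its own limit as a p-value and does not say that it was adjusted. The groups did not overlap in 21 of the 43 genes (48.8%), against 42.3% of all genes tested. PERP is a gene that the study named from these same libraries, so its rise is not independent evidence.

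**Figure D1:**
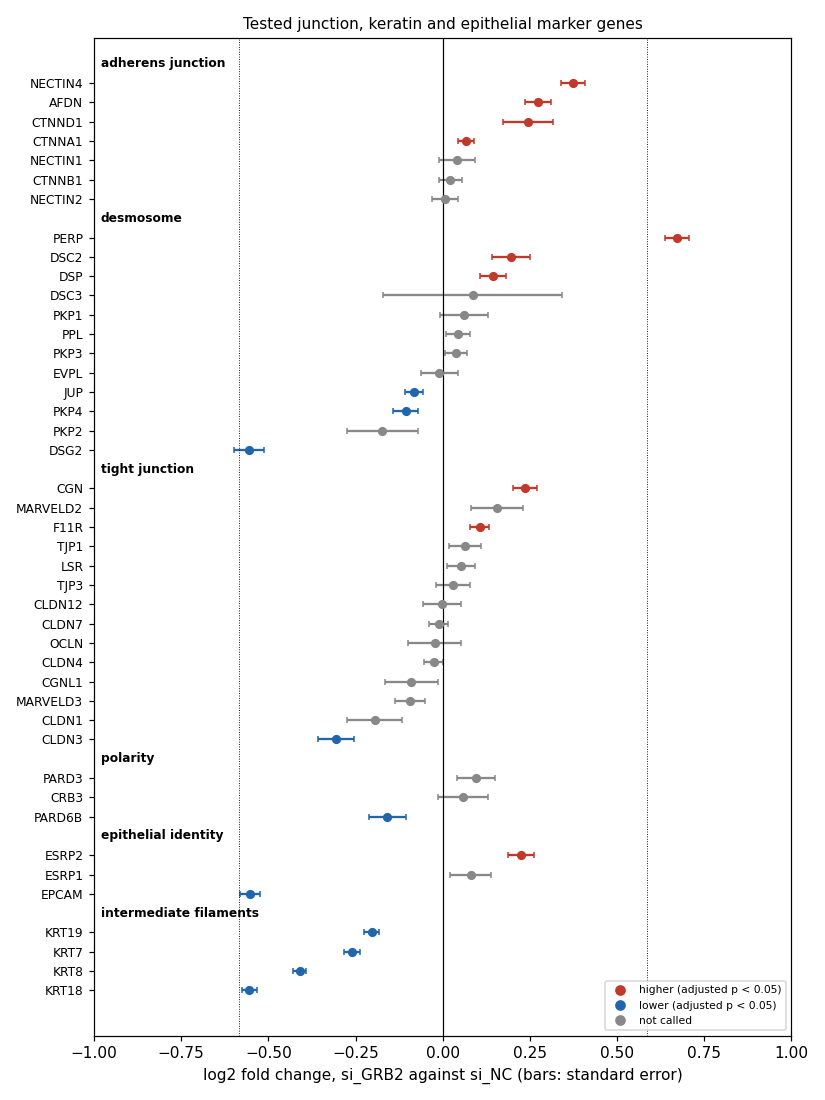
Log2 fold change of si_GRB2 against si_NC for the 43 tested genes, grouped by class, with the standard error as bars. Red and blue points are genes called higher and lower at an adjusted p under 0.05 (10 of each), grey points are not called, and the dotted lines mark a fold change of 1.5. PERP lies beyond the right line, the adherens junction genes lie at or right of 0, and the 4 keratins lie left of it.

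The classes differed widely in level per length. In FPKM, the keratins were highest, with a si_NC mean of 1246 ± 77.6 for KRT19, 1040.3 ± 60.04 for KRT18, 697 ± 27.5 for KRT8 and 454 ± 23.9 for KRT7 (SD, n = 3 each). In each of the 6 libraries the order of these 4 was the same as in the means. Among junction genes the highest si_NC means were 137 ± 6.87 FPKM for JUP, 93.4 ± 5.06 for CLDN4, 77.0 ± 3.18 for CLDN7 and 69.6 ± 2.37 for CTNNA1 (SD, n = 3 each). EPCAM was at a similar level, 66.5 ± 2.93 FPKM in si_NC. CTNNA1 and EPCAM differed by less than the sum of their SDs. Far below were CTNNB1 (β-catenin) at 7.88 ± 0.208, DSG2 at 3.89 ± 0.156 and OCLN (occludin) at 1.58 ± 0.124 FPKM (SD, n = 3 each). DSC3, a desmocollin of stratified epithelia, had 0.0833 ± 0.0115 FPKM (SD, n = 3).

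**Figure D2:**
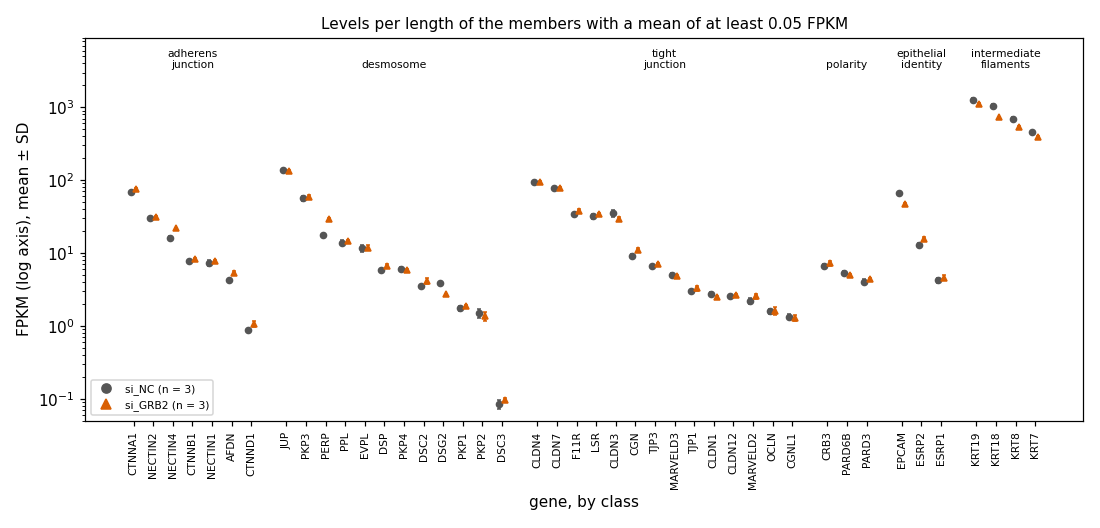
FPKM (log axis) of the members with a mean of at least 0.05 FPKM, by class and in order of level, as the mean and SD of 3 si_NC libraries (circles) and 3 si_GRB2 libraries (triangles). The keratins sit highest, JUP, CLDN4, CLDN7, CTNNA1 and EPCAM follow, and the SDs are small beside the distances between most genes.

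In the adherens junction class, 4 of the 7 genes tested rose, NECTIN4, AFDN, CTNND1 and CTNNA1, and 0 fell. At an unadjusted p under 0.05 the counts were also 4 and 0, and DESeq2 gave 4 and 0. Over all genes tested, 15.2% were called higher. In either direction 57.1% of the class was called, against 43.6% of all genes at 10 CPM or more, where all 7 lay. The median log2 fold change of the 7 genes was 0.07, and all 7 estimates were above 0. The count of 4 became 2 without si_NC replicate 2, si_NC replicate 3 or si_GRB2 replicate 3, NECTIN4 and AFDN keeping their calls in each. JUP, which also sits in adherens junctions, was counted with the desmosome class and was lower (log2 fold change −0.08, edgeR adjusted p = 0.0236).

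NECTIN4 (nectin 4, an adhesion molecule of epithelial cells; ENSG00000143217.9, GRCh38 chromosome 1 from 161070998 to 161089558, minus strand) had 68.2, 70.1 and 71.8 CPM in si_NC and 91.5, 90.8 and 89.9 in si_GRB2. All 3 si_GRB2 libraries lay above all 3 of si_NC, by far more than the spread within either group. The log2 fold change was 0.37 (standard error, SE, 0.04, edgeR adjusted p = 7.37e-07). AFDN (afadin, which binds the tails of nectins and actin; chromosome 6 from 167826893 to 167972023) had 74.4, 72.7 and 71.1 CPM in si_NC and 85.5, 87.4 and 90.8 in si_GRB2. Its groups did not overlap either, with a log2 fold change of 0.27 (SE 0.04, edgeR adjusted p = 3.49e-05). The ratio of AFDN to NECTIN4 reads was 1.04 ± 0.0505 in si_NC and 0.969 ± 0.0381 in si_GRB2 (SD, n = 3; two-sided exact permutation p = 0.2, where 3 against 3 cannot go below 0.1).

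Of the other nectins, NECTIN1 and NECTIN2 were not called, with log2 fold changes of 0.04 (SE 0.05) and 0.01 (SE 0.04). NECTIN3 had 3 reads over all 6 libraries and was not tested. The 2 nectins not called overlapped between groups.

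CTNNA1 (α-catenin, which joins the cadherin complex to actin) had 762, 771 and 761 CPM in si_NC and 794, 812 and 799 in si_GRB2. The groups were apart, yet the rise was small, a log2 fold change of 0.07 (SE 0.02, edgeR adjusted p = 0.0308). Its call was lost in 5 of the 6 fits that left out a library, all but the one without si_GRB2 replicate 1, with the largest adjusted p of 0.142 without si_NC replicate 3. It was also lost without a filter on low counts (adjusted p = 0.08), with at least 10 counts in every library (adjusted p = 0.0529) and with the replicate number as a block (edgeR adjusted p = 0.111). CTNNB1 (β-catenin, which binds the cadherin tail and also acts in Wnt signalling) overlapped between groups, at a mean of 115 ± 1.38 CPM in si_NC and 117 ± 2.54 in si_GRB2 (SD, n = 3 each).

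CTNND1 (p120-catenin, which holds cadherins at the membrane) had 17.7, 16.01 and 16.01 CPM in si_NC and 18.7, 18.6 and 21.6 in si_GRB2, a log2 fold change of 0.24 (SE 0.07, edgeR adjusted p = 0.0151). The annotation also holds TMX2-CTNND1, a readthrough gene on the same strand that covers it, with reads equal to 1190% of those of CTNND1. TMX2-CTNND1 came to 211, 220 and 214 CPM in si_NC and 214, 223 and 212 in si_GRB2, with a log2 fold change of 0.01 (SE 0.03, edgeR adjusted p = 0.869). How the authors split reads between the pair was not given in the sources used here, so the value of CTNND1 is uncertain. Its adjusted p rose to 0.0711 without si_NC replicate 2, 0.0501 without si_NC replicate 3 and 0.0928 without si_GRB2 replicate 3.

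CDH1 (E-cadherin, the main cadherin of epithelial adherens junctions; ENSG00000039068.20, chromosome 16 from 68737292 to 68835537) had 3, 1 and 1 reads in si_NC and 2, 1 and 1 reads in si_GRB2. That is 9 reads in all, too few to test, and no difference between groups was detectable at this depth. Its catenin partners CTNNA1 and CTNNB1 had at least 2902 reads in every library. Of the other cadherins measured, CDH24 had 3277 reads over the 6 libraries and the endothelial CDH5 had 3763. Both were lower in si_GRB2, CDH24 at a log2 fold change of −0.36 (adjusted p = 0.000125) and CDH5 at −0.61 (edgeR adjusted p = 5.56e-06). These were named after their values were seen.

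In the desmosome class, all 12 genes were tested, and 3 rose (PERP, DSC2, DSP) and 3 fell (DSG2, PKP4, JUP). That is 50%, near the 43.6% of all genes at 10 CPM or more, where all but DSC3 lay. The class held the largest rise of all members, and its median log2 fold change was 0.04. Without si_NC replicate 2, 1 gene was higher, and without si_NC replicate 3 or si_GRB2 replicate 3, 1 was lower. Over all genes tested, 15.5% were called lower.

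PERP (a tetraspan membrane protein needed for stable desmosomes and a known target of p53; ENSG00000112378.12, chromosome 6 from 138088505 to 138107419, minus strand) had 93.3, 94.95 and 90.4 CPM in si_NC and 148, 143 and 152 in si_GRB2. All 3 si_GRB2 libraries lay far above those of si_NC, a rise of 59.3% or 0.67 (SE 0.03, edgeR adjusted p = 7.45e-10) on the log2 scale. DSG2 (desmoglein 2, the desmosomal cadherin of simple epithelia; ENSG00000046604.14, chromosome 18 from 31498177 to 31549008) went the other way, from 45.3, 46.7 and 45.7 CPM to 31.8, 30.3 and 31.6. Its log2 fold change was −0.56 (SE 0.04, edgeR adjusted p = 7.53e-08), short of the fold limit for a DEG. The reads of PERP were 2.02 ± 0.0435 times those of DSG2 in si_NC and 4.74 ± 0.0779 times in si_GRB2 (SD, n = 3; two-sided exact permutation p = 0.1, the lowest value 3 against 3 allow). PERP and DSG2 kept their calls in every alternative fit and with each library left out.

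DSC2 (desmocollin 2, the partner cadherin of DSG2) had 57.6, 53.5 and 51.1 CPM in si_NC and 57.3, 61.8 and 66.5 in si_GRB2. Here the groups overlapped, since si_NC replicate 1 was above si_GRB2 replicate 1. The log2 fold change of 0.19 (SE 0.05, edgeR adjusted p = 0.012) passed the test, but the call was lost without si_NC replicate 2 (adjusted p = 0.0556) and without si_GRB2 replicate 3 (adjusted p = 0.0826). Gene counts do not show which isoforms of DSC2 were made. DSC3, the other desmocollin of the class, had from 19 to 26 reads a library and was not called.

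Among the proteins that tie these cadherins to keratin, DSP (desmoplakin) had 98.0, 94.8 and 96.6 CPM in si_NC and 101, 111 and 107 in si_GRB2. The groups were apart by a small margin, with a log2 fold change of 0.14 (SE 0.04, edgeR adjusted p = 0.00833). JUP (plakoglobin, which sits in desmosomes and adherens junctions; chromosome 17 from 41754604 to 41786931, minus strand) had 837, 836 and 857 CPM in si_NC and 810.2, 812 and 770.1 in si_GRB2. It was the most abundant desmosomal gene, and its fall was slight, a log2 fold change of −0.08 (SE 0.03, edgeR adjusted p = 0.0236). The call on DSP was lost without si_NC replicate 2 (adjusted p = 0.0529) and without si_GRB2 replicate 2 (adjusted p = 0.0667). The call on JUP was lost without si_NC replicate 3 (adjusted p = 0.0702), without si_GRB2 replicate 3 (adjusted p = 0.119) and with the replicate block (adjusted p = 0.0536). PKP4 (plakophilin 4, a p120-related protein) had a log2 fold change of −0.11, and its call held only in the fit without si_NC replicate 1 among those that left out a library, with the largest adjusted p of 0.107 without si_GRB2 replicate 2. DESeq2 did not call it (adjusted p = 0.085).

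The other plakophilins, PKP1, PKP2 and PKP3, and the envelope proteins PPL (periplakin) and EVPL (envoplakin) were not called, with log2 fold changes from −0.17 to 0.06. A gene on the opposite strand overlaps EVPL with reads equal to 63.1% of its own. By summed FPKM of the 12 desmosomal genes, JUP made up 53.0% ± 0.265 in si_NC and 49.3% ± 0.402 in si_GRB2, and PERP 6.87% ± 0.287 and 10.8% ± 0.551 (SD, n = 3 each). DSG2 made up 1.502% ± 0.0365 and 1.01% ± 0.0409. PKP3 stayed close to 1 value, 21.6% ± 0.327 and 21.8% ± 0.275 (SD, n = 3 each). A share also moves with the other genes in the sum. The FPKM of JUP itself overlapped between groups, at 137 ± 6.87 in si_NC and 134 ± 4.73 in si_GRB2 (SD, n = 3 each).

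In the tight junction class, 14 genes were tested, and 2 rose (CGN, F11R) and 1 fell (CLDN3). That is 21.4%, against 30.6% of all genes tested and 43.6% of those at 10 CPM or more, where all 14 lay. The median log2 fold change was −0.0069. The other 11 genes had log2 fold changes between −0.19 and 0.16.

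Claudins set which ions pass a tight junction. CLDN4 (chromosome 7 from 73799542 to 73832690) had 537, 544 and 556 CPM in si_NC and 544, 547 and 517 in si_GRB2, and CLDN7 had 236, 241 and 239 against 240.3, 233 and 238. Both pairs of groups overlapped. The log2 fold changes were −0.03 (SE 0.03) for CLDN4 and −0.01 (SE 0.03) for CLDN7. CLDN3 (ENSG00000165215.6, chromosome 7 from 73768997 to 73770270, minus strand) had 52.9, 54.5 and 59.4 CPM in si_NC and 46.4, 46.5 and 42.0 in si_GRB2. Every si_GRB2 library was lower, with a log2 fold change of −0.31 (SE 0.05, edgeR adjusted p = 0.000282). CLDN1 was also lower in every si_GRB2 library, but its log2 fold change of −0.19 (SE 0.08) did not pass the test (edgeR adjusted p = 0.0725).

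By summed FPKM of the 5 claudins listed, CLDN4 made up 44.3% ± 0.153 in si_NC and 45.5% ± 0.562 in si_GRB2, CLDN7 36.6% ± 0.597 and 38.0% ± 1.08, and CLDN3 16.6% ± 0.689 and 14.1% ± 0.532 (SD, n = 3 each). CLDN1 and CLDN12 each made up 1.36% or less in every library. In the annotation CLDN12 overlaps GTPBP10 on the same strand, which had reads equal to 231% of its own, and CLDN7 overlaps a same-strand gene with 18.1%, so the values of both are uncertain.

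CGN (cingulin, a scaffold that binds ZO proteins and myosin; ENSG00000143375.15, chromosome 1 from 151510510 to 151538692) had 74.7, 74.6 and 76.2 CPM in si_NC and 86.2, 90.9 and 88.4 in si_GRB2. The groups stood well apart, with a log2 fold change of 0.24 (SE 0.04, edgeR adjusted p = 9.28e-05). F11R (JAM-A, an immunoglobulin-type adhesion molecule) had 217, 215 and 214 CPM in si_NC and 227, 234 and 234 in si_GRB2, a log2 fold change of 0.11 (SE 0.03, edgeR adjusted p = 0.0072). The paralogue of cingulin, CGNL1, overlapped between groups at 14.3 ± 0.96 and 13.5 ± 0.93 CPM (SD, n = 3 each). The other tight junction genes were not called: OCLN, MARVELD2 (tricellulin), MARVELD3, the scaffolds TJP1 and TJP3, and LSR, a receptor of tricellular contacts. Of these, MARVELD3 had no overlap between groups, at 39.1 ± 0.831 CPM in si_NC and 36.6 ± 1.03 in si_GRB2 (SD, n = 3; adjusted p = 0.121, edgeR).

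**Figure D3:**
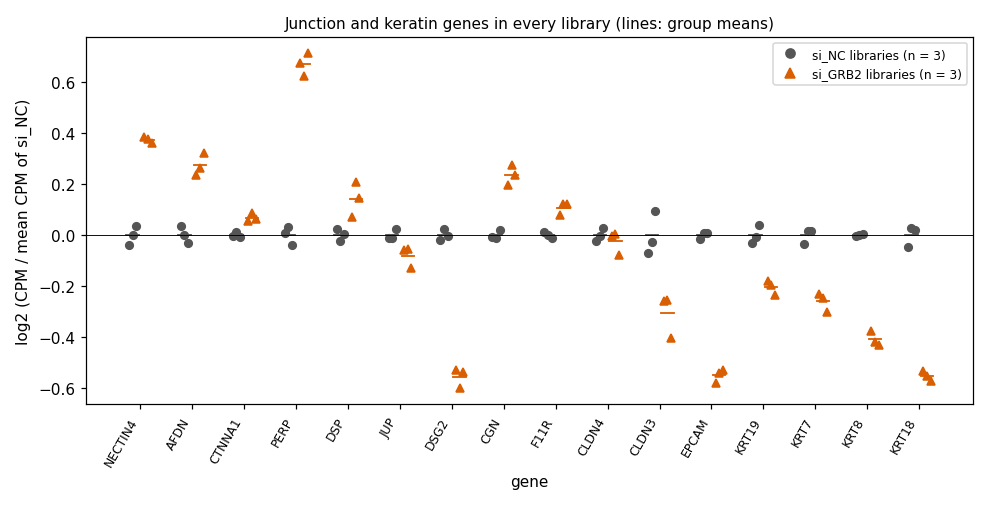
Log2 of each library's CPM over the si_NC mean for 16 members, with si_NC libraries as circles, si_GRB2 libraries as triangles and group means as lines. PERP stands highest and DSG2, EPCAM and KRT18 lowest among the si_GRB2 libraries, and CLDN4 is the gene shown whose groups overlap.

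Of the 3 polarity genes, 1 was called. PARD6B, which scaffolds atypical protein kinase C, had 33.4, 29.9 and 30.2 CPM in si_NC and 27.4, 27.8 and 28.6 in si_GRB2, a log2 fold change of −0.16 (SE 0.05, edgeR adjusted p = 0.0313). The call was lost with DESeq2 (adjusted p = 0.104) and without si_NC replicate 1 (adjusted p = 0.152), si_GRB2 replicate 1 (adjusted p = 0.0954) or si_GRB2 replicate 2 (adjusted p = 0.0901). CRB3, an apical membrane protein and the most abundant of the class per length, had 13.2, 13.6 and 13.4 CPM in si_NC and 14.0, 14.8 and 12.96 in si_GRB2, with overlap. On the opposite strand, SLC25A23 overlaps CRB3 with reads equal to 494% of its own. PARD3, the partner scaffold, had a log2 fold change of 0.09 and was not called.

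EPCAM (an adhesion molecule of epithelia that also binds claudins; ENSG00000119888.11, chromosome 2 from 47345158 to 47387601) had 199, 202 and 202 CPM in si_NC and 134, 138 and 139 in si_GRB2. The libraries of each group lay within a few CPM of each other and the groups were far apart. The log2 fold change was −0.55 (SE 0.03, edgeR adjusted p = 8.94e-10), which held in every alternative. The ratio of EPCAM to CLDN7 reads went from 0.841 ± 0.00373 to 0.578 ± 0.0174 (SD, n = 3; two-sided exact permutation p = 0.1, the lowest possible). ESRP1 and ESRP2 are splicing factors that set epithelial isoforms. ESRP2 had 84.3, 81.1 and 85.5 CPM in si_NC and 97.8, 101 and 93.9 in si_GRB2, a log2 fold change of 0.22 (SE 0.04, edgeR adjusted p = 0.000274), whereas ESRP1 was not called at 0.08 (SE 0.06). NFATC3 on the opposite strand overlaps ESRP2 with reads equal to 27.6% of its own, and a same-strand gene with 24.0%.

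All 4 keratins fell, where 15.5% of all genes tested were called lower and 43.6% of those at 10 CPM or more were called in either direction. Keratin 8 pairs with keratins 18 and 19 in the filaments of simple epithelia, and keratin 7 marks glandular and ductal cells. KRT18 (ENSG00000111057.11, chromosome 12 from 52948871 to 52952906) had 3847, 4048 and 4024 CPM in si_NC and 2742, 2706 and 2667 in si_GRB2. KRT8 (ENSG00000170421.12, chromosome 12 from 52897187 to 52949954, minus strand) had 5945, 5975 and 5987 CPM in si_NC and 4589, 4464 and 4422 in si_GRB2. For both genes each si_GRB2 library was well under each si_NC library. The log2 fold changes were −0.55 for KRT18 (SE 0.02, edgeR adjusted p = 3.72e-11) and −0.41 for KRT8 (SE 0.02, edgeR adjusted p = 1.76e-10).

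KRT7 (chromosome 12 from 52232520 to 52252186) had 2205, 2284 and 2285 CPM in si_NC and 1921, 1903 and 1832 in si_GRB2. KRT19 (chromosome 17 from 41523617 to 41528308, minus strand) had 3541, 3600.0 and 3723 CPM in si_NC and 3198, 3161 and 3073 in si_GRB2. Their falls were smaller, with log2 fold changes of −0.26 (SE 0.02) and −0.20 (SE 0.02) and adjusted p-values of 4.15e-07 and 4.1e-06 from edgeR's quasi-likelihood test. The calls on KRT7 and KRT19 were not kept by limma on log2(FPKM + 1), with adjusted p-values of 0.0746 and 0.238.

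The 4 keratins together took 1.53%, 1.55% and 1.57% of all reads on genes in si_NC and 1.26%, 1.25% and 1.22% in si_GRB2. The unequal falls changed their proportions. Reads of KRT18 were 0.666 ± 0.0162 times those of KRT8 in si_NC and 0.602 ± 0.00438 times in si_GRB2, while reads of KRT19 were 0.607 ± 0.0137 and 0.7 ± 0.0071 times those of KRT8 (SD, n = 3; two-sided exact permutation p = 0.1 each, the lowest possible). By summed FPKM of the 4 genes, KRT19 made up 36.2% ± 0.415 in si_NC and 40.2% ± 0.118 in si_GRB2, and KRT18 30.3% ± 0.371 and 26.3% ± 0.132 (SD, n = 3 each). In the annotation the ends of KRT8 and KRT18 overlap on opposite strands, and the sources used here do not say whether the counting used strand. The count table also holds 30 processed pseudogenes of KRT8, with reads equal to 0.259% of its own, and 32 of KRT18, with 0.0529%. In bulk RNA, fewer cells that express a keratin and less keratin RNA per cell cannot be told apart.

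A list of 17 further keratins was read in the same fit, of which 13 had enough reads. Of these, 8 (61.5%) fell and 0 rose, against 15.5% of all genes tested called lower and 15.2% called higher. At an unadjusted p under 0.05 the counts were 9 and 1. The median log2 fold change was −0.43, against 0.0019 over all genes tested. KRT5 and KRT17, keratins of basal cells, had log2 fold changes of −1.02 (adjusted p = 2.82e-08) and −1.09 (adjusted p = 1.15e-05), and KRT23, KRT13 and KRT16 of −0.75, −0.67 and −0.59 (edgeR). These 5 passed the limits for a DEG, and their means over the 6 libraries lay between 1.54 and 2.50 FPKM. KRT4 and KRT80, at 94.7 and 48.3 FPKM over the 6 libraries, fell with log2 fold changes of −0.43 and −0.36. KRT81, a hair-type keratin with 259.7 ± 12.3 FPKM in si_NC and 277 ± 9.05 in si_GRB2 (SD, n = 3 each), was not called, nor were KRT10, KRT15, KRT83 and KRT86.

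**Figure D4:**
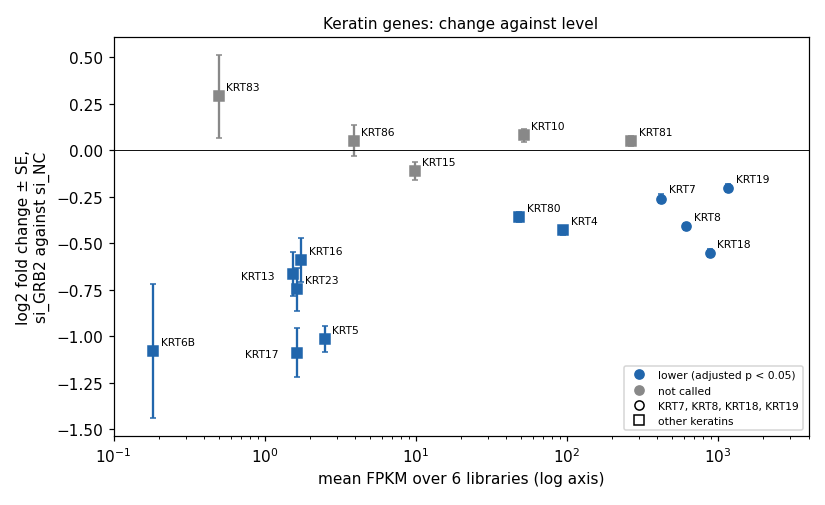
Log2 fold change (with standard error) of 17 tested keratins against their mean FPKM over the 6 libraries (log axis). Circles are KRT7, KRT8, KRT18 and KRT19 and squares are other keratins, blue where called lower and grey where not called. No keratin shown is called higher, and the lower estimates are found both among the scarce and among the most abundant keratins.

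VIM (vimentin, the intermediate filament of mesenchymal cells; ENSG00000026025.16, chromosome 10 from 17228241 to 17237593) had 8, 6 and 3 reads in si_NC and 0, 1 and 0 reads in si_GRB2. These 18 reads were too few for the filter, so it was not tested among the 43. Without a filter on low counts it was called lower, as the fifth gene of its class. Of the other genes used as mesenchymal markers, 11 were read and 5 had enough reads, and 3 of these fell, against 15.5% of all genes tested. CD44, a hyaluronan receptor, had a log2 fold change of −0.79 (adjusted p = 1.12e-06), and TGFBI, a matrix protein, of −0.67 (edgeR adjusted p = 2.32e-05). S100A4 fell with a log2 fold change of −0.38 from 820.3 ± 42.8 FPKM in si_NC to 647 ± 7.56 in si_GRB2 (SD, n = 3 each). FN1 (fibronectin) was not called at −0.10, FBN1 (fibrillin) was not called at 0.39 (SE 0.20), and SPARC, MMP2, MMP14, LOX, AXL and POSTN had too few reads.

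Of 16 regulators of epithelial state, 11 were read, and 4 rose and 2 fell (54.5%), against 30.6% of all genes tested. All but SNAI1 and GRHL3 had a mean of at least 10 CPM, where 43.6% of all genes were called. SNAI1, a repressor of E-cadherin, had 1.95 ± 0.111 FPKM in si_NC and 1.96 ± 0.224 in si_GRB2 (SD, n = 3 each) and was not called. ZEB1, ZEB2, SNAI2, TWIST1 and TWIST2 were not found in the count table and so were not analysed here. ELF5, a factor of mammary luminal progenitors, was the only DEG, with a log2 fold change of 0.70 (SE 0.07, edgeR adjusted p = 2.15e-06). The others that rose were KLF4, OVOL1 and EHF, at 0.35, 0.20 and 0.19. Those that fell were KLF5 and ELF3, at −0.28 and −0.09. Of 30 further junction genes, 28 were read and 23 tested, of which 5 fell and 2 rose, or 30.4%, close to the 30.6% of all genes. The 2 that rose act in cell polarity, LLGL2 at 0.20 and PALS1 at 0.24 (listed as MPP5). PRKCI, another gene of cell polarity, fell at −0.19, and SCRIB, DLG1, PATJ, PRKCZ, PARD6A and PARD6G were not called. Of the rest that fell, CDH24 was at −0.36, and the actin-binding ACTN1 (α-actinin 1), LIMA1 and ACTN4 were at −0.38, −0.19 and −0.14. All of these were named after their values were seen.

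SNAI and ZEB repressors are known to bind E-boxes of the form CACCTG, which reads CAGGTG on the other strand, so a search for either form covers both strands. RefSeq promoters on GRCh38.p14, 250 bases before to 50 after the start site, were matched for 30 of the 48 genes, and 9 of the 30 (30.0%) held such an E-box against 20.6% of all 27305 promoters. Of the 20 genes called, 12 were matched and 6 held one, 4 of them higher in si_GRB2 (NECTIN4, AFDN, DSP, DSC2) and 2 lower (DSG2, CLDN3). One stretch is shown for 5 of these genes, with the E-box in capitals, to let the sites of genes that moved in either direction be compared:
NECTIN4, chr1:161089582-161089605, minus strand: ccagagacgCACCTGttctgacct
DSP, chr6:7541577-7541600, plus strand: gaaaccggcCAGGTGtggcctagg
DSC2, chr18:31102563-31102586, minus strand: actttctgtCAGGTGggcctcagg
DSG2, chr18:31498052-31498075, plus strand: cggcggccaCACCTGgagccgcgc
CLDN3, chr7:73770221-73770243, minus strand: agccacaggCAGGTGcaggcgca
Among genes not called, CRB3, OCLN and TJP1 held at least 1. The other matched genes that were called, PERP, JUP, CGN, KRT8, CTNNA1 and PKP4, held none in this window. No promoter was matched for CDH1, EPCAM, KRT7, KRT18 or KRT19, so nothing is known here of theirs. A match says only that the letters are there.

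The calls on 8 genes held in every alternative fit, including limma on log2 FPKM, and with each library left out: PERP, NECTIN4, AFDN and CGN as higher, and KRT18, KRT8, EPCAM and DSG2 as lower. The calls on CLDN3, KRT7, KRT19, F11R and ESRP2 were lost only under limma on log2 FPKM of all genes, with a pseudocount of 1 or 0.1. CTNNA1, CTNND1, DSC2, DSP, JUP, PKP4 and PARD6B also lost theirs when single libraries were left out. No called member changed its direction in any of these fits.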

How the data were processed

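The authors trimmed reads with FASTX-Toolkit, aligned them to GRCh38 with HISAT2 and deposited the counts of uniquely mapped reads per gene, without normalization, and FPKM computed per gene, rounded to 2 decimals. The counting tool, its strand setting, the annotation and the total behind FPKM were not given in the sources used here. No other column of per-sample values was present (0).

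Here the count table was fitted in R 4.3.3 with edgeR 4.0.16. After filterByExpr, 15801 genes remained and were scaled by TMM, and glmQLFTest compared si_GRB2 with si_NC with no covariate, adjusting p-values (Benjamini-Hochberg) over all genes kept. Each standard error (SE) was taken from the log2 fold change and the F statistic of its test. Precision follows the reads counted, and standard errors show it for each gene. FPKM were used for levels between genes. The alternatives used DESeq2 1.42.0, its size factors, other filters, a replicate block, limma 3.58.1 on log2 FPKM, a stricter p and each library left out. The tests were tried on simulated data. Positions and overlaps come from GENCODE 44 by gene identifier. Python 3.11.15 and matplotlib 3.10.9 drew the figures.

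Values in every library are given for DEGs, for the 3 smallest adjusted p in each larger class, for the most abundant gene of each class and for CDH1 and VIM, and DEGs of the other lists are named, at most 5 a list. Genes named beyond this rule were chosen after their values were seen. The members and lists were chosen with earlier results of these data known. Splicing was not analysed here, and 1 mesenchymal gene beyond the 11 counted and 1 promoter stretch are not reported here.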

Additional observations from a re-analysis of the deposited data

How the results depend on the processing

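GRB2 was lower in every fit, with log2 fold changes from −2.18 to −2.13 over the fits that left out one library, −2.15 with the replicate block and −1.91 with limma on log2(FPKM + 1). Of the 20 called members, 159 refits with all libraries kept 121 calls and lost 38, and 120 refits without one library kept 98 and lost 22, with 0 changes of sign. The replicate numbers did not pair the libraries (correlations of deviations 0.232, −0.0948 and 0.0804 for numbers 1, 2 and 3). With the replicate block, 9 members were higher and 8 lower, and 1 desmosomal gene was lower in place of 3.

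Limma on log2(FPKM + 1) or log2(FPKM + 0.1) called 4 members higher and 4 lower in place of 10 and 10. Over all 29912 genes covered, these settings called only 4.68% and 5.13%, against 30.6% of 15801 in the edgeR fit. The loss of calls was thus not particular to the members. By class these settings gave 2 adherens junction, 1 desmosomal, 1 tight junction and 0 epithelial identity genes higher, and 1 desmosomal, 0 tight junction, 0 polarity and 2 keratin genes lower. With a mean FPKM of at least 1, limma called 6 higher, with 2 adherens junction and 1 desmosomal gene among them, and 1 desmosomal and 0 polarity genes lower. That setting called 24.7% of all 10888 genes covered. DESeq2 called 0 polarity genes lower. Without a filter on low counts 1 member, VIM, passed as a lower DEG in place of 0. The median log2 ratio of group means was 0.0459 by FPKM, against a median log2 fold change of 0.0019 with TMM over the genes tested. For JUP, limma on log2(FPKM + 1) gave −0.04 in place of −0.08. For the fits on FPKM, the cause was not tested. All other counts with all libraries were within 1.5 times the counts reported.

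Leaving out one library gave 7 to 10 members higher and 8 to 10 lower, 1 DEG higher and 0 lower. Over all genes tested, the same fits called 23.4% to 27.5%, against 30.6% with all libraries. By class, 2 to 4 adherens junction, 1 to 3 desmosomal, 2 tight junction, 0 to 1 polarity and 1 epithelial identity genes were higher, and 1 to 4 desmosomal, 1 tight junction, 0 to 1 polarity, 1 epithelial identity and 4 keratin genes were lower. Only 2 adherens junction genes were higher without si_NC replicate 2, si_NC replicate 3 or si_GRB2 replicate 3. Only 1 desmosomal gene was higher without si_NC replicate 2, and 1 lower without si_NC replicate 3 or si_GRB2 replicate 3. Depth limited CDH1, VIM, NECTIN3 and DSC3.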
